A study of Homo sapiens with 4 samples.

Results

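The kinesin genes other than KIF5A, KIF5B and KIF5C were taken from the count tables by symbol, as every KIF or KIFC gene with a number and an optional letter A to C, which gave 39 of 60719 listed genes. They were followed in RNA bound to immunoprecipitated KIF5A carrying a V5 tag. The host was SK-N-AS, a human neuroblastoma cell line, transfected with a construct for wild-type KIF5A (WT) or for the mutant named d27, and the tagged protein was captured with beads against the V5 peptide. Each group held 2 precipitates, numbered 1 and 2 in the labels, and all 4 came from the same line under the same transfection protocol, with the cells' own KIF5 genes present. Nothing in the labels says that the 2 precipitates of a group came from separate cultures, so the spread behind every p-value may be technical. Transfection is transient, the promoter of the construct is not given in the sources used here, and no input or mock precipitate was analysed here. Every value is therefore a comparison of d27 with WT precipitates. A lower level of an mRNA in the cell and a smaller share of it in the precipitate cannot be told apart.

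Kinesins are motor proteins that burn ATP to walk along microtubules or to take microtubule ends apart. One branch of the family builds and works the mitotic spindle and the bridge between daughter cells, and dividing cells make these motors mainly around mitosis. Another branch carries vesicles, organelles and protein complexes, and neurons depend on it to supply axons and dendrites. A smaller branch serves cilia and centrioles. From textbook roles, but with earlier results of these data known, 14 members were classed as division kinesins and 14 as transport kinesins. A further 6 were classed as cilium and centriole kinesins and 5 as other or mixed.

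Gene counts totalled between 8142869 and 18335151 per library. KIF5A itself, the gene of the bait, took between 9.03% and 14.8% of gene counts in each library and missed the threshold (log2 fold change -0.20 ± 0.49 SE, edgeR adjusted p = 0.821, n = 2 per group). Its counts add transfected and endogenous transcripts and cannot tell the constructs apart. The lowest correlations between libraries were those of WT replicate 2 with d27 (Pearson r = 0.866 and 0.887 across genes on the log2 scale), while WT replicate 1 correlated with d27 replicate 2 at r = 0.930 and with its own partner at r = 0.928. Of the adrenergic neuroblastoma markers, HAND2 had at least 4576 counts in every library, while TH had at most 5 and DBH at most 13. Of the mesenchymal markers, VIM, FN1 and COL1A1 had at least 3018 counts in every library. These 7 markers differed in direction, and 1 passed: FOSL1 was at 166 and 143 CPM with WT and 1917 and 1749 with d27 (log2 3.57 ± 0.30 SE, edgeR adjusted p = 0.00384), while SNAI2 (1.498), FN1 (-1.63) and COL1A1 (-0.89) did not pass. Reads that HTSeq assigned to no gene made up 47.6% and 47.3% of entries with WT and 25.9% and 36.8% with d27. The part of these differences in the kinesin results was not tested. Of the markers of other cell types, CD3E and EPCAM had 0 counts in all 4 libraries and CDH1 had 5 in WT replicate 2 alone, but the leukocyte gene PTPRC had between 858 and 1852 and was lower in d27 (log2 -0.96 ± 0.24 SE, edgeR adjusted p = 0.0433), whose part in the kinesin results was not tested.

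Every kinesin mRNA that passed the test was lower with d27 than with WT. Of the 39 members, 33 had enough reads to be tested. Of these, 11 were lower in d27, none was higher and 22 did not pass (edgeR, Benjamini-Hochberg adjusted over all 14909 genes tested, threshold 0.05). Over all tested genes, 3.70% were called lower and 8.00% higher. At an unadjusted p under 0.05 no member was higher either. DESeq2 gave 15 lower and 0 higher. Over the 31016 genes with any count it called 3.60% lower and 5.56% higher. That base includes genes that DESeq2 left without an adjusted p, so these shares are not on the base of the edgeR shares. Without WT replicate 2, 9 members were lower against 1.92% of all genes (6.19% higher), and without d27 replicate 1, 5 were lower against 0.431% (4.23% higher). The median log2 fold change (d27 over WT) was -0.93 over the tested kinesins and -0.00043 over all tested genes. The kinesin median was -0.47 without WT replicate 2 and -0.22 with an offset for coding length, described at the end. WT replicate 2 was above WT replicate 1 in 28 of the 33 tested kinesins (median ratio 1.40). Both d27 libraries lay below both WT libraries in 23 of the 33 members, against 29.8% of all tested genes. Of the tested members, KIF2A alone had both d27 libraries above both WT libraries, against 31.4% of all tested genes. The 33 tested members were not selected by a high level in one group, since 32 of them had at least 10 counts in every library, the exception being KIF1A.

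Division kinesins made up 7 of the 11 lower members. Of 12 tested, 7 were lower (58.3%), none was higher and 5 did not pass, with a median log2 fold change of -1.28. Both d27 libraries lay below both WT libraries in all 12. KIF2A, which also acts at spindle poles, was classed as other or mixed. It had both d27 libraries above both WT libraries, so counting it as a division kinesin would end that uniformity. Of 14 tested transport kinesins, 1 was lower (7.14%, against 3.70% of all tested genes), 13 did not pass and the median was -0.60. Both d27 libraries lay below both WT libraries in 6 of these 14, against 29.8% of all tested genes. Without WT replicate 2, which was the higher WT library in 12 of the 14, the transport median was -0.097 and none was called, while the division median was -1.18 and 9 were lower. Among cilium and centriole kinesins 1 of 4 was lower (median -0.71), and among the other kinesins 2 of 3 were lower (median -1.17). The difference between the division and transport medians was -0.68, and it lay between -1.28 and -0.65 in all 13 alternative analyses. No test of the classes against each other was made.

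**Figure D1:**
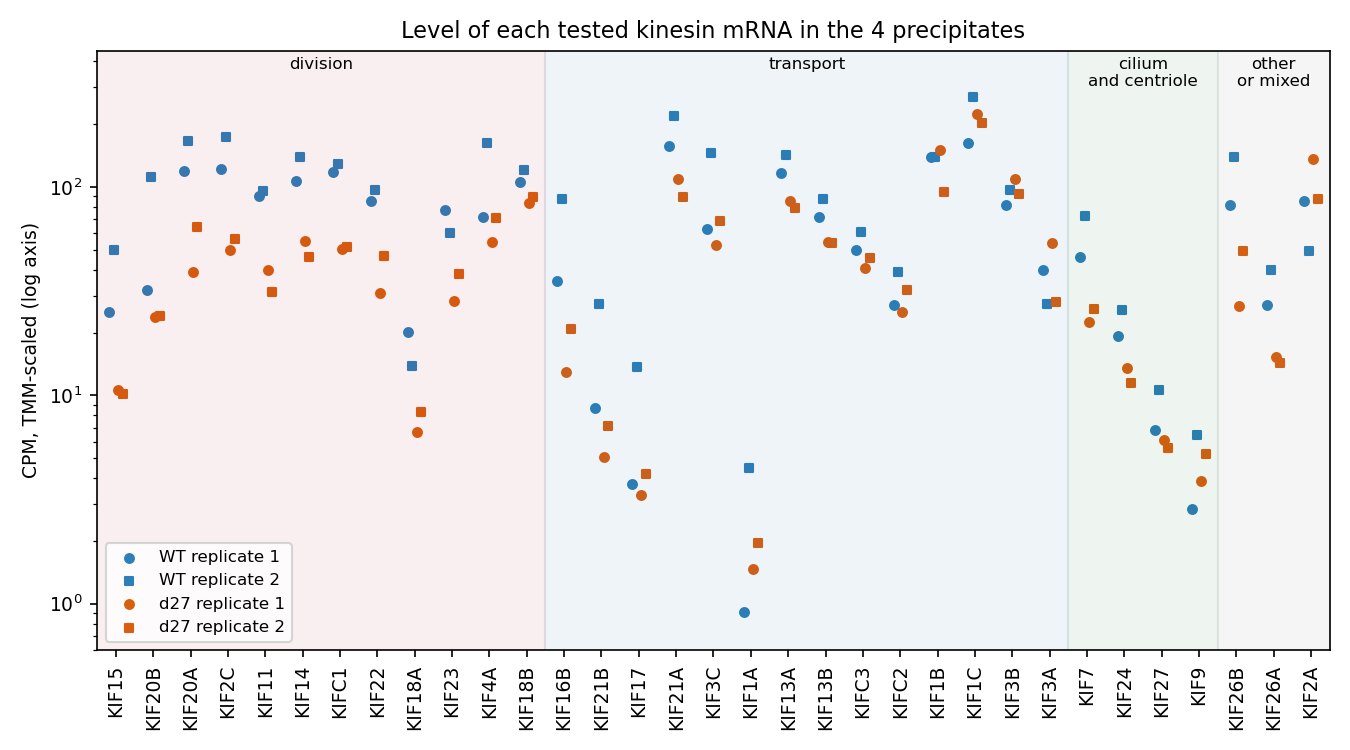
Level of each of the 33 tested kinesin mRNAs (log axis, TMM-scaled CPM) in WT replicates 1 and 2 (blue circle and square) and d27 replicates 1 and 2 (orange circle and square), grouped by role and ordered by fold change. In all 12 division kinesins both orange points lie below both blue points, whereas 8 of the 14 transport kinesins overlap. KIF2A, classed as other or mixed, has both orange points above both blue points.

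Promoter sequences, which played no part in the choice of members, are shown because 7 of the 11 lower kinesins were division kinesins. Many genes expressed around mitosis carry a cell cycle homology region near their start, with the letters TTTGAA or TTTAAA, and one or more CCAAT boxes upstream of it. Both were searched on both strands (TTTGAA reads TTCAAA, and CCAAT reads ATTGG, on the opposite strand; TTTAAA reads the same on both) in RefSeq promoters of GRCh38.p14, from 250 bases before to 50 after each start. The table held promoters of 32 of the 39 members. The homology letters occurred in 12 of 14 division kinesins and 1 of 10 transport kinesins, against 27.9% of all 27305 genes with a promoter there. CCAAT occurred in 11 of 14 division and 2 of 10 transport kinesins, against 39.7% of all genes. Both together occurred in 10 of 14 division kinesins, in none of the 10 transport, 4 cilium or 4 other kinesins, and in 11.2% of all genes. The motifs did not separate division kinesins that passed the test (both motifs in 4 of 7) from those that did not (5 of 5). Both d27 libraries lay below both WT libraries in all 12 tested division kinesins. A split by the threshold therefore cannot show whether the motifs go with the difference. A match is a match of letters and no evidence of binding.

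The stretch from 100 bases before to 20 bases after the start is given for the 6 division kinesins that had the homology letters and were lower in d27, for KIF18B, which had the smallest difference of the class, and for the transport kinesin KIF1C, which had neither motif. Sequences read 5′ to 3′ along the gene, with both motifs in capitals. They lie at chr1:44739737-44739856 (KIF2C, plus strand), chr6:33391723-33391842 (KIFC1, plus), chr10:92593030-92593149 (KIF11, plus), chr1:200620732-200620851 (KIF14, minus), chr3:44761694-44761813 (KIF15, plus), chr5:138179012-138179131 (KIF20A, plus), chr17:44947754-44947873 (KIF18B, minus) and chr17:4997850-4997969 (KIF1C, plus).
KIF2C: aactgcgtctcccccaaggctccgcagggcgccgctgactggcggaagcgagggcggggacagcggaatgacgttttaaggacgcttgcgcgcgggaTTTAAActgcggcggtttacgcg
KIFC1: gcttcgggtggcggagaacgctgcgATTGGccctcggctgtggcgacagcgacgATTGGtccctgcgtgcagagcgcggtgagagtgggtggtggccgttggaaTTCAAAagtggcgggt
KIF11: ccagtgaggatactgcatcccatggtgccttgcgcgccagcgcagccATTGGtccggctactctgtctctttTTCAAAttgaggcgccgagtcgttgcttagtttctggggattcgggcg
KIF14: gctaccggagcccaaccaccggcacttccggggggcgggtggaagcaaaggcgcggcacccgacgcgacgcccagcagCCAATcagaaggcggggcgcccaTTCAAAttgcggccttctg
KIF15: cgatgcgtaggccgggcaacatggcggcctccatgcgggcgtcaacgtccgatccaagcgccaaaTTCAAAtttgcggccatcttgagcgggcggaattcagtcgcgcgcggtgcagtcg
KIF20A: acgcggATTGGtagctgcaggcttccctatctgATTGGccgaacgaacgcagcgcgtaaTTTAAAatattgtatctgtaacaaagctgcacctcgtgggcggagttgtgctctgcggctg
KIF18B: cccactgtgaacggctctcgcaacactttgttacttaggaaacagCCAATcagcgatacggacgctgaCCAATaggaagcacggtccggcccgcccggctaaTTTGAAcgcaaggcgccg
KIF1C: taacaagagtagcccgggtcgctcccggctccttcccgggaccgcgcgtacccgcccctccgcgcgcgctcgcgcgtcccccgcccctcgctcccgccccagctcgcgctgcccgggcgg
In these windows the homology letters began 28 bases before the start in KIF11, 35 before in KIF15 and 41 before in KIF20A, at base 2 after the start in KIF14 and at base 5 in KIFC1. The nearest CCAAT box upstream began 23 to 26 bases before the homology letters in KIF14, KIF11 and KIF20A and in KIF4A, which did not pass, and KIF4B, which was not tested. In KIF18A and KIF18B it began 35 and 34 bases before them, in KIFC1 50, in KIF23 9 and in KIF20B 122 and 128 before its 2 matches, so the spacing varied.

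Of the division kinesins, 5 stayed lower in d27 with each library left out in turn: KIF2C, KIFC1, KIF11, KIF14 and KIF15. KIF2C (ENSG00000142945; GRCh38 chromosome 1, 44739818 to 44767767), which strips tubulin from microtubule ends at kinetochores, had 1066 and 1670 counts in the WT libraries and 918 and 605 in the d27 libraries, each in the order replicate 1, replicate 2. Scaled to library size these were 121 and 174 CPM with WT and 49.95 and 56.2 with d27. The groups did not overlap, with a 2.78-fold lower level in d27 (log2 -1.47 ± 0.27 SE, edgeR adjusted p = 0.0182). KIFC1 (chromosome 6, 33391536 to 33409924), a motor that walks toward minus ends and focuses spindle poles, had 1040, 1243, 927 and 551 counts in the same order, or 118 and 129 CPM against 50.4 and 51.2. It showed the closest agreement within groups of the 5, with a 2.43-fold lower level in d27 (log2 -1.28 ± 0.23, edgeR adjusted p = 0.0178). KIF11 (chromosome 10, 92593286 to 92655395), the motor that pushes spindle poles apart, had 798, 922, 733 and 335 counts. These were 90.8 and 95.8 CPM with WT against 39.9 and 31.1 with d27, a 2.62-fold lower level (log2 -1.39 ± 0.25, edgeR adjusted p = 0.0184).

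KIF15 and KIF14 also passed. KIF15 (chromosome 3, 44761717 to 44873376), which helps KIF11 keep the spindle bipolar, had 221 and 479 counts with WT and 194 and 109 with d27. At 25.1 and 49.8 CPM the WT libraries differed from each other, and both lay above the 10.6 and 10.1 CPM of d27. The level was 3.62-fold lower in d27 (log2 -1.86 ± 0.38 SE, edgeR adjusted p = 0.0247), the largest difference among the tested division kinesins. KIF14 (chromosome 1, 200551497 to 200620734), which works with citron kinase in cytokinesis, had 942, 1337, 1013 and 493 counts, or 107 and 139 CPM against 55.1 and 45.8. It was 2.44-fold lower in d27 (log2 -1.28 ± 0.25, edgeR adjusted p = 0.0228).

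KIF20A and KIF22 also passed, but both calls were lost without d27 replicate 1 (edgeR adjusted p = 0.0809 and 0.175), and that of KIF22 also with library totals in place of TMM scaling. KIF20A (chromosome 5, 138178719 to 138187715), which brings the chromosomal passenger complex to the spindle midzone, had 1051 and 1599 counts with WT and 716 and 689 with d27. Its levels were 120 and 166 CPM against 39.0 and 64.1, so the groups did not overlap, and it was 2.78-fold lower in d27 (log2 -1.48 ± 0.31 SE, edgeR adjusted p = 0.0282). KIF22 (chromosome 16, 29790719 to 29805385), a chromokinesin that binds chromosome arms, had 754, 933, 570 and 500 counts. Its 85.8 and 97.0 CPM with WT lay above the 31.0 and 46.5 CPM with d27, a 2.36-fold lower level (log2 -1.24 ± 0.28, edgeR adjusted p = 0.0323). Exons of KIF20A overlap BRD8 and CDC23 on the opposite strand, those of KIF22 and KIF2C an antisense gene each and those of KIFC1 the pseudogene RPL12P1. The strand setting of the counting is not known here, so reads of such pairs may not be told apart. KIF11, KIF14 and KIF15 have no such overlap in the annotation.

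Of the division kinesins that did not pass, KIF23 and KIF18A had the lowest p. KIF23, a subunit of the centralspindlin complex of the midzone, had 679, 580, 519 and 413 counts, or 77.3 and 60.3 CPM against 28.2 and 38.4. Its groups did not overlap, and its log2 difference of -1.05 ± 0.28 SE fell just outside the threshold (edgeR adjusted p = 0.0504). KIF18A, which aligns chromosomes at the metaphase plate, had 177, 133, 123 and 89 counts, or 20.1 and 13.8 CPM against 6.69 and 8.27 (log2 -1.18 ± 0.36, edgeR adjusted p = 0.0695). In KIF20B, a cytokinesis motor, and KIF4A, a chromokinesin of the midzone, the WT libraries disagreed most. KIF20B had 31.9 and 111 CPM with WT against 23.7 and 24.1 with d27 (log2 -1.58 ± 0.51, edgeR adjusted p = 0.0836). KIF4A had 71.8 and 163 CPM against 54.4 and 71.1, so WT replicate 1 was close to d27 replicate 2 (log2 -0.91 ± 0.38, edgeR adjusted p = 0.156). KIF18B, which acts at the ends of astral microtubules, had the smallest difference of the class, 106 and 120 CPM against 84.1 and 89.2 (log2 -0.39 ± 0.23, edgeR adjusted p = 0.286). KIF4B, a near-identical copy of KIF4A, had 3, 10, 15 and 10 counts and KIF2B had 1 count in d27 replicate 2 alone. Neither was tested. The aligner is not known here, so reads that fit KIF4A and KIF4B equally may have been left out.

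**Figure D2:**
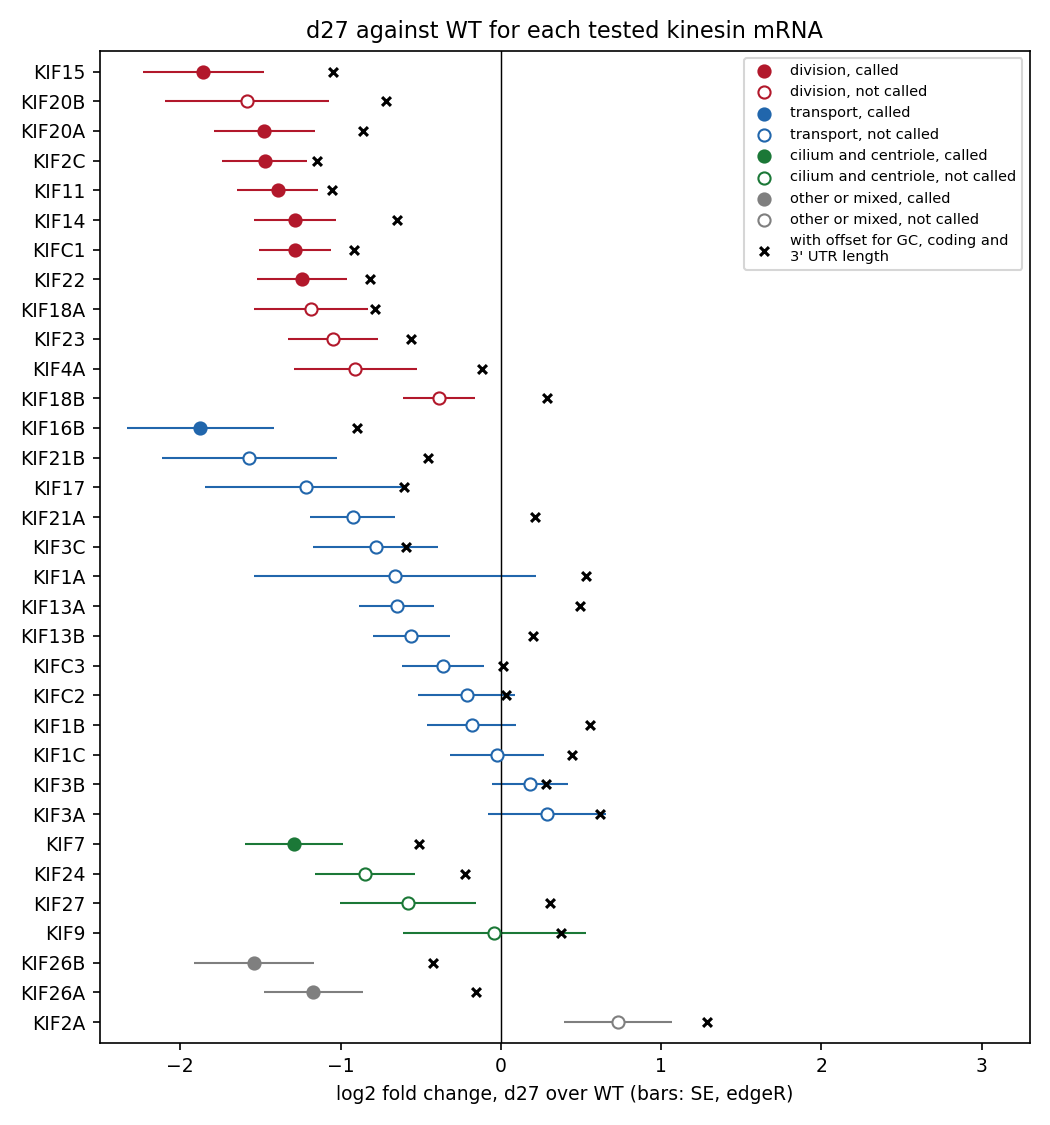
Log2 fold change of d27 over WT for each tested kinesin mRNA, with its standard error from edgeR, filled where the gene passed the threshold and coloured by role (n = 2 per group). Crosses give the value with an offset for GC content, coding length and 3′ UTR length. Without the offset 30 of 33 values lie below 0, and with it the median of the transport kinesins is 0.21 and that of the division kinesins -0.80.

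Among the transport kinesins, KIF16B was the only one called. KIF16B (chromosome 20, 16272104 to 16573434), a motor of early endosomes, had 310 and 845 counts with WT and 239 and 223 with d27, or 35.3 and 87.8 CPM against 13.0 and 20.7. Its groups did not overlap, but the WT libraries differed from each other. It was 3.67-fold lower in d27 (log2 -1.87 ± 0.46 SE, edgeR adjusted p = 0.0394), the largest difference among tested kinesins, and the call was lost without WT replicate 2 or without d27 replicate 1. KIF21A and KIF21B, which restrain microtubule growth and carry cargo in neurons, had the lowest p of those not called. KIF21A had 1382, 2117, 1998 and 967 counts, or 157 and 220 CPM against 109 and 89.9 (log2 -0.93 ± 0.26, edgeR adjusted p = 0.0592). KIF21B had 76, 264, 93 and 77 counts, or 8.65 and 27.4 CPM against 5.06 and 7.16 (log2 -1.57 ± 0.55, edgeR adjusted p = 0.0986). In both genes the d27 libraries lay below the WT libraries.

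The transport kinesins KIF1C and KIF3B had the highest levels of the class per kilobase of exon (by longest transcript, KIF1C and KIF21A). KIF1C, which carries vesicles along microtubules to the cell edge, had 1427 and 2605 counts with WT and 4098 and 2183 with d27, or 162 and 271 CPM against 223 and 203. The d27 values lay between the WT values (log2 -0.02 ± 0.29 SE, edgeR adjusted p = 0.967). KIF3B, a motor subunit of kinesin-2, had 716, 926, 2006 and 992 counts, or 81.5 and 96.2 CPM against 109 and 92.2 (log2 0.18 ± 0.24, edgeR adjusted p = 0.648). Its partner subunit KIF3A had a log2 fold change of 0.29 ± 0.37, with overlapping groups, and the third subunit gene, KIF3C, -0.78 ± 0.39. The mitochondrial and vesicle motor KIF1B was at 140 and 139 CPM with WT and 151 and 94.2 with d27 (log2 -0.18 ± 0.28). KIF13A and KIF13B, motors of endosomes and of membrane scaffolds, had log2 fold changes of -0.65 ± 0.23 and -0.56 ± 0.24, with separated groups, and did not pass (edgeR adjusted p = 0.108 and 0.160). The minus-end motors KIFC3 and KIFC2 had -0.36 ± 0.25 and -0.21 ± 0.30. KIF17, a dendritic and ciliary motor, had 33 to 131 counts per library (log2 -1.22 ± 0.63, edgeR adjusted p = 0.232), and KIF1A, the main axonal motor of synaptic vesicle precursors, had only 8 to 43 (log2 -0.66 ± 0.88). An adjusted p above the threshold does not show that these levels were equal.

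In the cilium and centriole class KIF7 was lower. KIF7 (chromosome 15, 89608789 to 89655451), which organises the tip of the primary cilium in Hedgehog signalling, had 403 and 699 counts with WT and 412 and 280 with d27, or 45.9 and 72.6 CPM against 22.4 and 26.03. The groups did not overlap and the level was 2.45-fold lower in d27 (log2 -1.29 ± 0.31 SE, edgeR adjusted p = 0.0361), a call lost without WT replicate 2 or without d27 replicate 1. Exons of KIF7 overlap TICRR on the opposite strand. KIF24, a centriole kinesin that restrains cilium assembly, had 169, 248, 249 and 123 counts, or 19.2 and 25.8 CPM against 13.5 and 11.4 (log2 -0.85 ± 0.31, edgeR adjusted p = 0.113). KIF27, a relative of KIF7, had 60, 102, 112 and 60 counts (log2 -0.58 ± 0.42, edgeR adjusted p = 0.394). KIF9, a motile cilium kinesin, had 25 to 71 counts and overlapping groups (log2 -0.04 ± 0.57). The motile cilium genes KIF6 and KIF19 were too scarce to test, with 1 to 11 and 0 to 1 counts per library.

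Of the remaining kinesins, KIF26B and KIF26A were lower and KIF2A was the member with the highest fold change. KIF26A and KIF26B have divergent motor domains and act in cell signalling rather than as motors. KIF26B (chromosome 1, 245154985 to 245709431) had 720, 1336, 495 and 530 counts, or 81.9 and 139 CPM with WT against 26.9 and 49.3 with d27, without overlap (log2 -1.54 ± 0.37 SE, edgeR adjusted p = 0.0389). KIF26A (chromosome 14, 104138723 to 104180894) had 237, 383, 282 and 154 counts, or 26.97 and 39.8 CPM against 15.3 and 14.3 (log2 -1.17 ± 0.31, edgeR adjusted p = 0.0476). Both calls were lost without WT replicate 2 or without d27 replicate 1, and that of KIF26A also without d27 replicate 2 and with library totals. KIF2A, a depolymerase that prunes axon branches and also acts at spindle poles, had 749 and 474 counts with WT and 2492 and 943 with d27. Its 85.2 and 49.3 CPM with WT lay below the 136 and 87.7 CPM with d27, by little in the case of WT replicate 1 and d27 replicate 2. It did not pass (log2 0.73 ± 0.34, edgeR adjusted p = 0.186). With the replicate number as a block it passed as higher (edgeR adjusted p = 0.0213), as it did with the offset for coding length. Its log2 fold change was 1.23 without WT replicate 1 and 1.04 without d27 replicate 2. It was 0.42 without WT replicate 2 and 0.40 without d27 replicate 1. KIF2A shares exon sequence with IPO11 on the same strand, where reads may have been left out as ambiguous. KIF12 had 2 counts in each d27 library and none in WT, and KIF25 had 2 counts in d27 replicate 2 alone, so both were at or under the 3 counts that a 0 allows in a library.

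Shares within the kinesin pool do not depend on how libraries are scaled, and they were lower for division and higher for transport kinesins with d27. An exact two-sided permutation test of 2 against 2 libraries cannot go below p = 0.333, so none was made. Division kinesins held 44.3% (95% exact binomial interval 43.6% to 45.0%) and 43.6% (43.1% to 44.2%) of kinesin counts in the WT libraries, and 29.2% (28.6% to 29.7%) and 34.5% (33.8% to 35.2%) in d27. The d27 libraries lay below the WT libraries by more than either pair differed within itself. Transport kinesins held 43.5% and 45.0% with WT and 57.0% and 52.7% with d27. Here the d27 libraries were the higher ones. Transport counts exceeded division counts in both d27 libraries and, by less, in WT replicate 2 (13095 against 12704). These counts are not scaled to gene length, so they do not compare the levels of the 2 classes. In CPM the summed level of division kinesins was 976 and 1320 with WT and 474 and 537 with d27, while that of transport kinesins was 957 and 1361 against 927 and 820. All 39 members together took 0.238% and 0.269% of gene counts with WT and 0.163% and 0.160% with d27. Intervals cover counting error only.

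**Figure D3:**
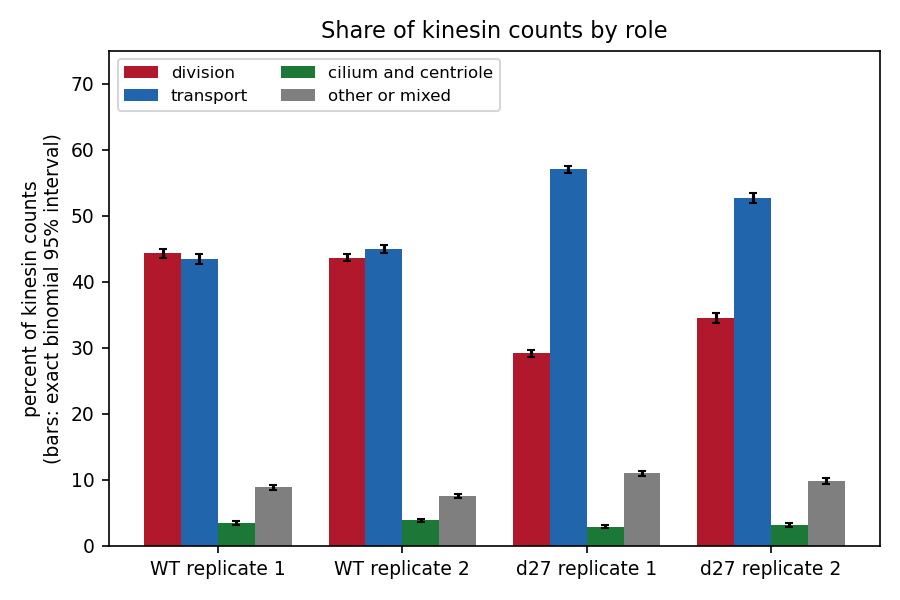
Share of all kinesin counts held by each role class in each library, in percent, with exact binomial 95% intervals that cover counting error only. Division kinesins (red) hold 44.3% and 43.6% in the WT libraries and 29.2% and 34.5% in the d27 libraries, and transport kinesins (blue) hold 43.5% and 45.0% against 57.0% and 52.7%.

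Per kilobase of exon, averaged over the 4 libraries, the most abundant kinesin mRNA was KIF2C at 27.5 ± 16.1 CPM per kb (SD, n = 4), then KIFC1 at 26.1 ± 12.7, KIF1C at 25.0 ± 5.25, KIF20A at 24.6 ± 14.4 and KIF18B at 21.5 ± 3.6. The SD spans both constructs, so it includes their difference and does not test the order of these neighbours. The order changed with the construct: in both WT libraries KIF2C and KIFC1 (33.3 and 47.6, and 35.4 and 38.6 CPM per kb) were above KIF1C (18.9 and 31.6), and in both d27 libraries KIF1C (25.99 and 23.7) was above KIF2C (13.7 and 15.4) and KIFC1 (15.1 and 15.3). KIF4A followed at 19.9 ± 10.9 CPM per kb, KIF2A at 18.7 ± 7.4 and KIF3B at 15.5 ± 1.9. The highest cilium kinesin was KIF7 at 8.35 ± 4.6 CPM per kb. KIF1A was at 0.132 CPM per kb, the lowest of the tested members.

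Of the partner genes of division kinesins, more were lower than higher. The partner lists were, like the classes, chosen with earlier results of these data known. From a list of 22, all tested, 6 were lower (27.3%, against 3.70% of all genes), 1 was higher and 15 did not pass. The median log2 fold change was -1.06. INCENP, the scaffold of the chromosomal passenger complex that KIF20A carries, went from 293 and 426 CPM with WT to 119 and 124 with d27 (log2 -1.57 ± 0.27 SE, edgeR adjusted p = 0.0161). ASPM, a spindle pole protein, was at 175 and 166 CPM against 76.2 and 73.2 (log2 -1.19), NUMA1, which organises poles, at 228 and 413 against 82.6 and 116 (-1.70), and TPX2, which recruits KIF11 and KIF15 to the spindle, at 242 and 283 against 123 and 125 (-1.08). All 4 had groups that did not overlap, but they were named for their low p, so this adds no support. Over the list of 22, both d27 libraries lay below both WT libraries in 16 genes, against 29.8% of all tested genes. They lay above in 1, against 31.4%. With the offset for coding length, the value of ASPM turned to 0.16, NUMA1 (-0.65) no longer passed, 3 genes of the list were called in either direction and its median was -0.41. Without WT replicate 2, 3 were called as well. CIT, the citron kinase partner of KIF14, and CKAP5, a microtubule polymerase, were the other 2 that fell, and BIRC5 (survivin) was the 1 that rose (log2 1.10 ± 0.26). These 3 were named after their values were seen. AURKA did not pass (log2 -1.03 ± 0.28, edgeR adjusted p = 0.0514). The list was not lower as a whole: PLK1 was at 172 and 173 CPM with WT and 179 and 171 with d27, and RACGAP1, the partner of KIF23, had a log2 fold change of -0.07 ± 0.23, both chosen after their values were seen. CENPE, a mitotic kinesin whose symbol falls outside the rule, was also named after its values were seen. It had 461 and 3405 counts with WT and 510 and 535 with d27, so that WT replicate 2 alone was high, and did not pass (log2 -2.40 ± 0.80, edgeR adjusted p = 0.0979).

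Among the partners of the other kinesins few genes passed. Of 21 tested partners of transport kinesins, 1 was lower, 2 were higher and 18 did not pass (4.76% lower and 9.52% higher, close to the 3.70% and 8.00% of all genes; median log2 fold change -0.27; KANK1 was not tested). MADD, which links KIF1A and KIF1B to vesicles, was lower at 159 and 206 CPM against 81.0 and 76.6 (log2 -1.21 ± 0.24 SE, edgeR adjusted p = 0.0243). MARK2, a microtubule affinity kinase, rose from 111 and 87.3 CPM to 217 and 182 (log2 1.01 ± 0.25, edgeR adjusted p = 0.0395). TANC2 did not pass (log2 -0.80 ± 0.24). The calls of MADD and MARK2 were each lost without WT replicate 2 and without d27 replicate 1. Of 19 genes of intraflagellar transport and Hedgehog signalling, 2 were lower (10.5%, against 3.70% of all genes) and 17 did not pass (median 0.07). GLI2, a Hedgehog transcription factor, was at 288 and 316 CPM with WT against 128 and 117 with d27 (log2 -1.30 ± 0.23, edgeR adjusted p = 0.0181). IFT172 was also lower (log2 -1.24 ± 0.29, edgeR adjusted p = 0.0359), a call lost without WT replicate 2, without d27 replicate 1 and with library totals. GLI1 did not pass (log2 1.31 ± 0.39, edgeR adjusted p = 0.0665).

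Coding length moved with the difference between constructs and is given beside these results. Over 12309 tested genes with a coding sequence, Spearman's rho between coding length and log2 fold change was -0.40, against 0.15 for 3′ UTR length, -0.06 for exon length and -0.07 for GC content, as a description across genes that are not independent. Tested kinesins have long coding sequences, with a median of 3309 bases against 1461 over all tested genes. The median was 2787 bases for division and 3743 for transport kinesins, and rho was -0.33 within the 12 division and -0.35 within the 14 transport kinesins. When each library's trend with GC content, coding length and 3′ UTR length was removed by an offset, 4 kinesins stayed lower: KIF2C (log2 -1.14 ± 0.20 SE, edgeR adjusted p = 0.0146), KIF11 (-1.05 ± 0.19, 0.0174), KIFC1 (-0.92 ± 0.19, 0.0262) and KIF22 (-0.81 ± 0.20, 0.0437). In that fit 2.49% of all genes were called lower and 7.43% higher. All 4 are division kinesins. KIF14, KIF15, KIF20A, KIF16B, KIF7, KIF26A and KIF26B no longer passed, with log2 fold changes between -1.05 for KIF15 and -0.16 for KIF26A, and KIF2A passed as higher (log2 1.29 ± 0.30, edgeR adjusted p = 0.0346). The median became -0.80 for division kinesins and 0.21 for transport kinesins, a difference of -1.004. MADD (-0.34) and GLI2 (-0.68) also no longer passed and IFT172 turned to 0.013. The 3′ UTR length in this offset was that of the transcript with the longest coding sequence. It was 0 bases for KIF1A, KIF3A, KIF13A and KIF26A, 3 for KIF21A, 59 for KIF2A and 75 for KIF22. What part these short lengths have in the offset values was not tested. What part coding length has in the result beyond this offset was not tested.

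**Figure D4:**
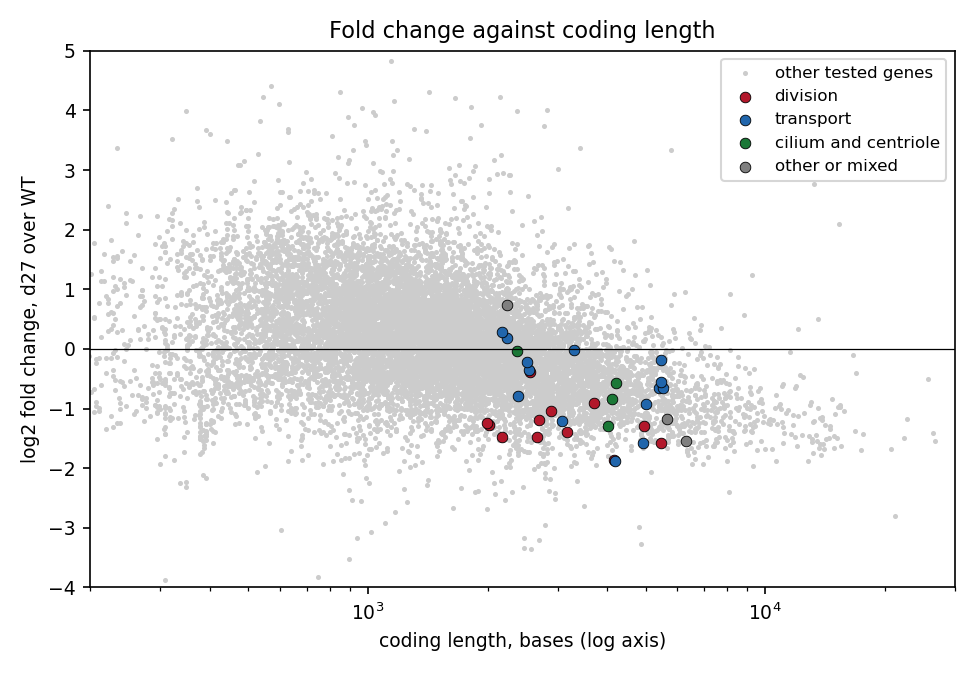
Log2 fold change of d27 over WT against coding length (log axis) for tested genes with a coding sequence (grey) and for the tested kinesins, coloured by role. Of 12309 genes, 47 lie outside the axes. Genes with longer coding sequences tend to lie lower (rho = -0.40). The tested kinesins lie between coding lengths of 1995 (KIF22) and 6324 bases (KIF26B).

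**Figure D5:**
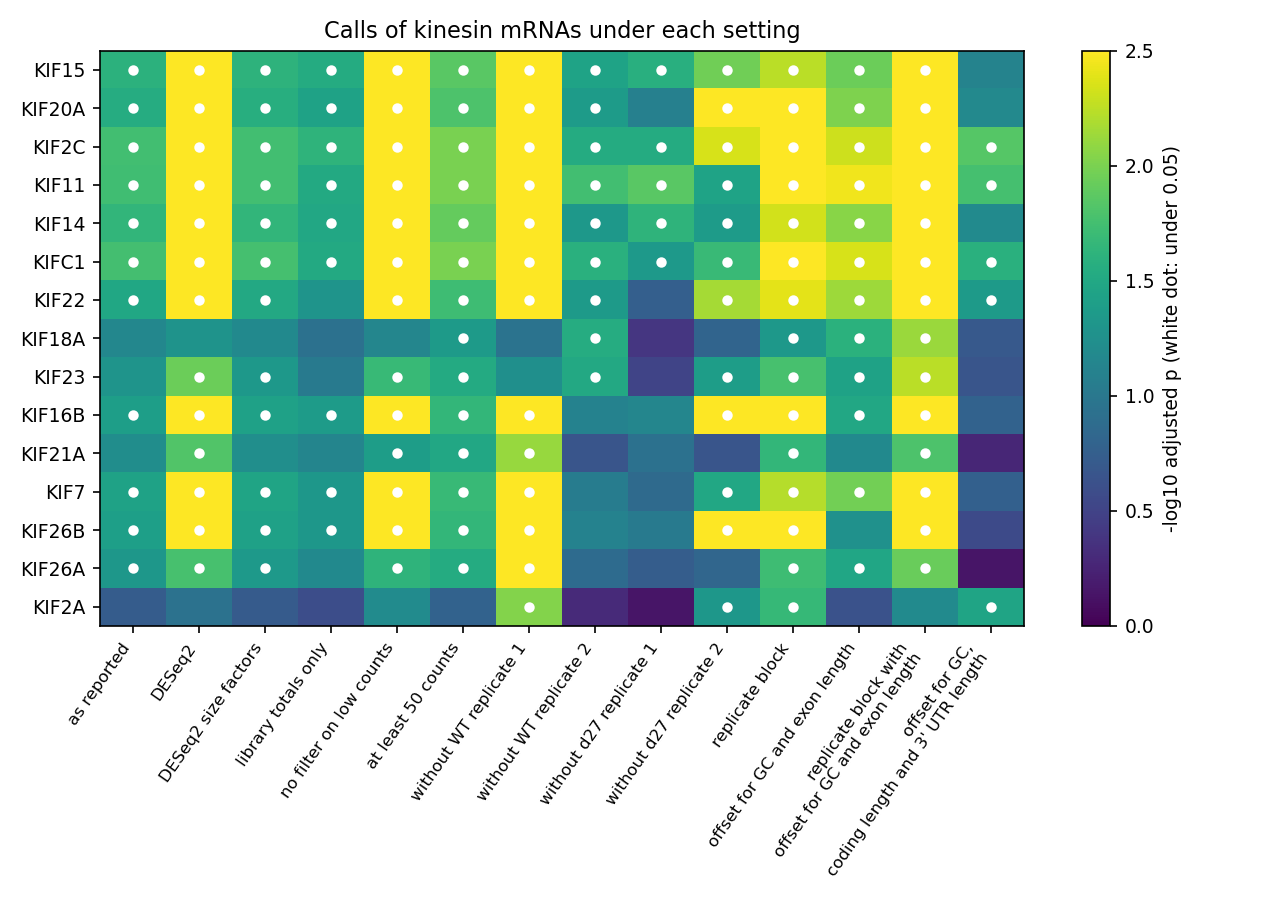
Adjusted p-values (colour, on a −log10 scale; white dots mark values under 0.05) of the 11 called kinesins and of KIF23, KIF18A, KIF21A and KIF2A in the analysis as reported and in 13 alternatives. KIF2C, KIF11 and KIFC1 carry a dot in every column, while KIF16B, KIF7, KIF26B and KIF26A lose theirs without WT replicate 2 or without d27 replicate 1.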

How the data were processed

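RNA from anti-V5 precipitates of SK-N-AS cells was depleted of ribosomal RNA and sequenced, per the labels' protocols, with a strand-marking kit. Each library has 1 deposited table of unnormalised read counts by Ensembl gene, made by the authors with HTSeq on GRCh38, per the submitters' processing notes, which also name DESeq2. Not given in the sources used here are the aligner, annotation release, strand setting and any version. HTSeq's summary entries (47.6% and 47.3% of all entries with WT, 25.9% and 36.8% with d27) were left out.

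A gene name table gave symbols for 60419 of 60719 identifiers. Positions, lengths and GC content came from GENCODE release 29 (GRCh38), with all 39 kinesins found there. GC is that of the longest transcript, and coding and 3′ UTR lengths are those of the transcript with the longest coding sequence. The reported test was edgeR 4.0.16 in R 4.3.3: TMM scaling, filterByExpr (minimum count 10, minimum total 15), glmQLFit (robust) and glmQLFTest on group alone, adjusted by Benjamini-Hochberg over all 14909 genes tested, threshold 0.05. SE is the log2 fold change over the square root of F. CPM values are TMM-scaled, except shares of counts. Totals of 8142869 to 18335151 counts put the 3 counts that a 0 allows at 0.164 to 0.368 CPM. Only counting error enters intervals and floor. On counts simulated for the d27 against WT comparison, with 14904 genes tested, recovery was 24.7% for 2-fold, 85.5% for 4-fold and 96.9% for 8-fold changes, with 7 calls among unchanged genes.

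Members, role classes and partner lists were chosen with earlier results of these data known. Every member is named, with counts for those called, for the 2 uncalled members of each class lowest in p and for the 2 highest per length; of each partner list up to 4 called genes and 1 uncalled gene are named by lowest p, except for an item that is not reported here. The fit was repeated with DESeq2 1.42.0, with its size factors alone, library totals, no count filter, at least 50 counts, each library left out, a replicate block, and an offset for GC and exon length with and without the block. The offset with coding length was chosen after seeing the data.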

Additional observations from a re-analysis of the deposited data

How the results depend on the processing

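In none of the alternatives did a called kinesin change direction. KIF2C, KIF11 and KIFC1 passed in all 13 alternatives, and KIF14 and KIF15 in all except the offset that includes coding length. With each library left out in turn, the count of kinesins called lower ranged from 5 to 18 and of those called higher from 0 to 1, and over all genes from 71 to 2136 lower and from 697 to 2715 higher. Those ranges were 5 to 9 for division, 0 to 5 for transport, 0 to 2 for cilium and 0 to 2 for other kinesins called lower, and 2 to 12, 0 to 9 and 1 to 5 for called partners of division kinesins, of transport kinesins, and cilium and Hedgehog genes. The lowest kinesin counts came without d27 replicate 1 and the highest without WT replicate 1. Medians of log2 fold changes ranged from -1.22 to -0.47 (all kinesins), -1.36 to -1.18 (division), -0.70 to -0.097 (transport), -0.91 to -0.40 (cilium), -1.38 to -0.84 (other), -1.06 to -0.64 (division partners), -0.34 to -0.062 (transport partners) and 0.011 to 0.17 (cilium and Hedgehog), and the division minus transport difference from -1.09 to -0.65.

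The numbers 1 and 2 do not pair the libraries by any label, and deviations of same-numbered libraries correlated with r = 0.0962. With the replicate number as a block, 17 kinesins were lower and 1 higher, 4 of them transport kinesins lower. Over all 14909 genes tested, 1438 were lower and 2137 higher. Beside those counts, the block gave calls for 12 of 22 division partners, 7 of 21 transport partners and 4 of 19 cilium and Hedgehog genes. With the block and the offset for GC and exon length, 17 kinesins were lower (11 division, 3 transport), 15 division and 6 transport partners were called, and 1585 genes were lower and 2259 higher. The transport median was then -0.23 and the class difference -1.28. The same offset without the block gave a transport median of -0.23, a class difference of -1.26, 1 other kinesin lower and 11 called division partners.

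With the offset for coding length, 4 kinesins were lower (4 division, 0 transport, 0 cilium, 0 other) and 1 was higher. The cause was not tested beyond this offset. Some members entered it with a 3′ UTR length of 0 bases, as given above, whose part was not tested. Medians became -0.22 (all kinesins), -0.80 (division), 0.21 (transport, reversed), 0.044 (cilium, reversed), -0.16 (other), -0.41 (division partners) and 0.10 (transport partners, reversed), with a class difference of -1.004. The log2 fold changes of ASPM (0.16) and IFT172 (0.013) reversed, and 3 division partners and 1 cilium and Hedgehog gene were called. DESeq2 gave 1118 genes lower, 3 of them transport kinesins, and 7 called transport partners. Library totals gave 285 genes lower, 1 other kinesin lower and 1 cilium and Hedgehog gene called. No count filter gave 974 genes lower and 1888 higher, with 3 transport kinesins lower, 11 division partners, 6 transport partners and 4 cilium and Hedgehog genes called. At least 50 counts gave 1008 genes lower, 2 transport kinesins lower and 5 transport partners called. For settings without a share over all genes, a count of list members is no result about the list. Causes of these shifts were not tested. At this depth the 6 untested kinesins allow no comparison.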
